A study of Mus musculus with 11 samples.

Results

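MicroRNA loci were followed through H3K27ac, the acetylation of histone H3 at lysine 27 that marks active promoters and enhancers. The members are the 874 regions, of 56342 in the authors' deposited table of differential H3K27ac, whose assigned gene symbol is that of a microRNA (Mir followed by a digit, or Mirlet7). They carry 165 of the 12081 symbols in the table. One symbol, Mir22hg, is the record of a host gene and holds 1 region. The cells were Beko, a mouse pre-T cell line, kept for 24 h with DMSO as solvent control, with apicidin (labelled 0.01 mg/ml) or with the gamma-secretase inhibitor DAPT (GSI, labelled 10 mg/ml). Apicidin inhibits histone deacetylases and the labels call it an HDAC3 inhibitor. GSI blocks the cleavage that frees the active part of the Notch receptor, and RBPJ is the DNA-binding protein that this part joins. There were 11 libraries: 2 for H3K27ac in each of the 3 conditions, 2 for RBPJ in DMSO cells, and 1 input per condition. The deposited table gives no value per library, so the values below are the authors' base mean (a mean of normalised read counts), log2 fold change with its standard error (SE), and adjusted p. The depth of each library is therefore unknown. Called means an adjusted p under 0.05 by the authors' DESeq2 test, which compares 2 libraries with 2. Nothing in the labels says that these came from separate cultures, so the p-values measure the spread between libraries, which may be technical.

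The labelled cell type was checked on markers. All 10 pre-T markers (such as Ptcra, Rag1 and Cd3e) had an acetylated region, with a highest base mean per gene of 221.6 to 12722.1. Of 6 B-cell markers 4 had one, none above 260.1, and Pax5 and Ms4a1 had none. Of 6 myeloid markers 1 had one, at 1245.2. Regions were also listed for 2 of 6 erythroid and megakaryocyte markers (up to 870.7), 3 of 5 natural killer markers (up to 427.7) and 4 of 6 fibroblast and epithelial markers (up to 1014.4). These are bulk libraries, in which fewer cells carrying the mark and less mark per cell cannot be told apart.

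A microRNA is cut from a hairpin in a longer primary transcript, which may be a gene of its own or an intron of a host gene. Drosha with DGCR8 releases the hairpin in the nucleus and Dicer cuts it to the mature strand, which an Argonaute protein carries. The strand pairs with messenger RNAs mostly through its seed, bases 2 to 8, and lowers their stability and translation. In the T lineage, microRNAs of the miR-181 family tune the response of thymocytes to antigen receptor signals, the miR-17~92 cluster favours survival and proliferation, and miR-142 is made in blood cells of nearly every kind.

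The mature strands that the results turn on are printed first, with the seed in capitals, as listed by RefSeq for GRCm38.p6. RefSeq matched 160 of the 165 symbols and gave a sequence for 147. With apicidin 3 of the 4 let-7 symbols were called lower at their strongest region, where 33.5% of all symbols were. The call at Mirlet7a-1 was lost under both rescalings of the fold changes described below. The let-7 strands, shown for these calls, share one seed:
mmu-let-7a-5p: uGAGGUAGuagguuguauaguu
mmu-let-7c-5p: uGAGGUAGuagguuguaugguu
mmu-let-7g-5p: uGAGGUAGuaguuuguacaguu
mmu-let-7i-5p: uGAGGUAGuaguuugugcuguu
The miR-181 strands also share one seed, and are shown because their loci did not change in one direction:
mmu-miR-181a-5p: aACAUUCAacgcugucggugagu
mmu-miR-181b-5p: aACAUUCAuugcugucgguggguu
mmu-miR-181c-5p: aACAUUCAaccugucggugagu
The strands of microRNAs with the strongest regions over their own hairpin, or with a call there under both drugs, follow:
mmu-miR-142a-5p: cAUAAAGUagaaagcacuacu
mmu-miR-142a-3p: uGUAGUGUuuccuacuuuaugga
mmu-miR-21a-5p: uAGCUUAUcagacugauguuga
mmu-miR-17-5p: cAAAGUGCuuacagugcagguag
The last set belongs to loci with large changes under GSI or apicidin:
mmu-miR-15a-5p: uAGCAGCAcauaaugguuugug
mmu-miR-22-3p: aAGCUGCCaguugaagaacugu
mmu-miR-214-3p: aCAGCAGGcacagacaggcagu
mmu-miR-331-3p: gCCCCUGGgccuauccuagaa
mmu-miR-551b-3p: gCGACCCAuacuugguuucag
Over all members, 14 seeds of 211 were shared by 2 or more symbols.

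The link between a region and a microRNA is the authors' assignment by start site, and the start of a microRNA record is its hairpin, 59 to 121 bases long, not the start of the primary transcript. Only 29 member regions, of 29 symbols, covered the assigned start. The median distance was 23194 bp, against 10532 bp over all regions, and the farthest lay 497893 bp away. By RefSeq, the hairpin lay within a coding or long noncoding gene for 122 symbols and within none for 37. Regions per symbol were uneven: 50 symbols had 1 region, and 10 symbols held 284 of the 874 (32.5%). Mir181a-1 alone held 60, Mir5127 held 38 and Mir378b held 30. Regions of one locus share a stretch of chromatin and are not replicates of each other.

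Per kb of region, microRNA regions were about as strongly acetylated as the rest, with a median base mean per kb of 106.7 against 107.7, and of 228.3 against 237.3 where a start was covered. A region 31667 bp from Mirlet7c-2, on chromosome 15 from 85495434 to 85505365 (mm9, as all coordinates here), was the strongest member by this measure, with 984.2 per kb, rank 5 of 56342. The Mir142 region, which covers its start on chromosome 11 from 87556078 to 87574579, followed with 633.8 per kb, rank 66. With its 18501 bp it had the highest summed base mean of all members, 11726. Mir21, a microRNA found in many tissues that lies in the transcript of Vmp1, had a region of 21926 bp over its start (chromosome 11, 86389356 to 86411282) with 412.7 per kb. Mir150, known from mature lymphocytes, had 1 region, with a base mean of 86.1 against a median of 53.0 over members. These values are not per kb: the Mir150 region was 904 bp wide, against a median of 531.5 bp over members.

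**Figure D1:**
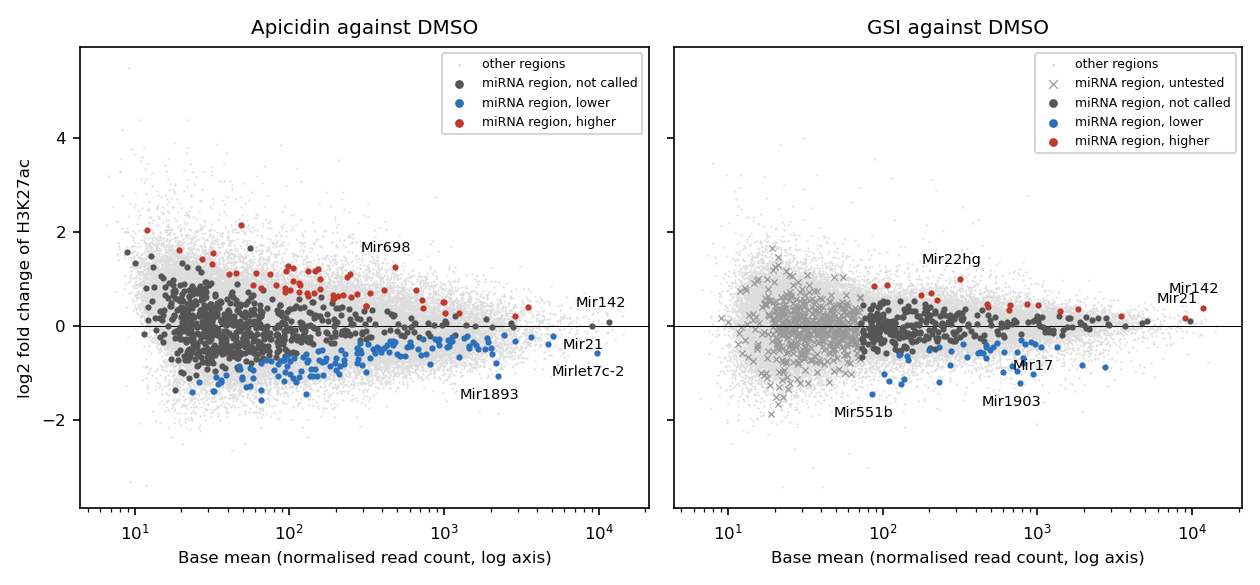
Log2 fold change of H3K27ac (vertical axis) against base mean (horizontal log axis) for apicidin on the left and GSI on the right; grey dots are the other regions of the table and larger marks the 874 microRNA regions. Mir142, Mirlet7c-2 and Mir21 have the highest base means of the members and stand rightmost in each panel, and 532 weak members (crosses) are untested for GSI.

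More microRNA regions were lower than higher with apicidin. Of 874 members, 54 were higher with apicidin in the authors' deposited table (6.18%, against 9.69% of all regions) and 134 lower (15.3%, against 14.1%). The median log2 fold change of members was -0.116 against 0.00398 over all regions. The lower calls fell on 70 symbols and the higher ones on 28. A log2 fold change past 1 in size was reached by 29 lower and 19 higher members. Counted once per symbol, by its region of highest base mean, 59 of 165 symbols were lower (35.8%, against 33.5% of all symbols) and 19 higher (11.5% against 12.0%). These shares are close to those of the table as a whole. The direction is relative to the authors' scaling: the stronger regions of the table had a median of -0.0991, and setting that to 0 (centring) changed the split of members from 54 higher and 134 lower to 77 and 94. Subtracting the trend with base mean gave 72 and 101, and these are the 2 rescalings referred to in what follows.

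Over the hairpin itself the changes with apicidin were also mostly downward, as at other starts. Of the 29 regions that covered a start, 14 were lower (48.3%, against 39.4% of all start-covering regions in the authors' deposited table) and 2 higher (6.90%, against 8.01%). Mir1893, whose hairpin lies within Epc1, a subunit gene of an acetyltransferase complex, fell by 1.08 ± 0.08 (SE) on the log2 scale, the largest fall of the 29, at a base mean of 2242 (adjusted p = 4.32e-40, the authors' deposited table). Mir760 fell by 0.86, Mir5131 by 0.65, Mirlet7i by 0.60, Mir301b by 0.58 and Mir762 by 0.47 in the same table. The region over Mir23a, the first hairpin of the miR-23a27a24-2 cluster, fell by 0.49 ± 0.07 (adjusted p = 5.29e-10 in the authors' deposited table), while the neighbouring Mir23a region 4060 bp away, as strong at a base mean of 2055, did not pass the test at -0.04 ± 0.07. Mir210, the hypoxia-induced microRNA, fell by 0.43, a call lost once the trend with base mean was subtracted. Calls at the starts of Mir17, Mir1943, Mir1956, Mir3075, Mir5133 and Mir5135, between -0.27 and -0.52, were lost under both rescalings. The 2 start regions that rose were those of Mir5114 (0.77) and Mir5098 (0.28). Mir142 and Mir21, which had the start regions of highest summed base mean, did not pass the test, at 0.079 ± 0.049 and -0.0048 ± 0.051 in the authors' deposited table.

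**Figure D2:**
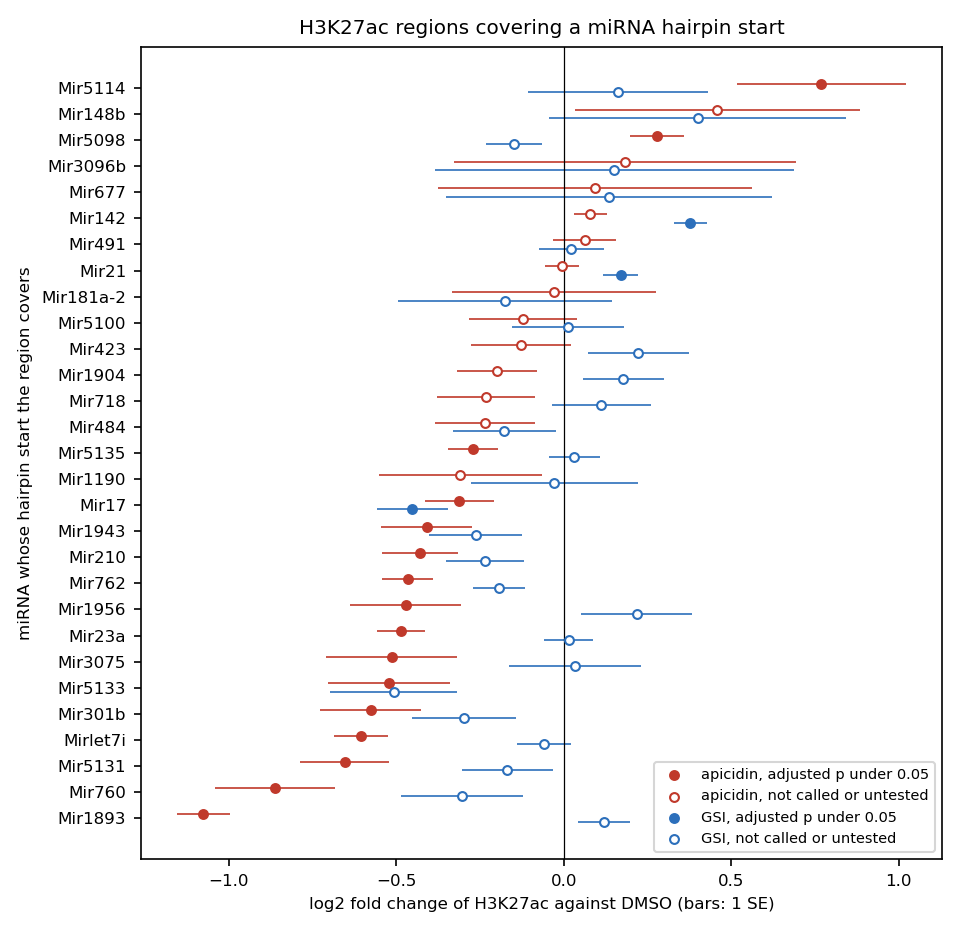
Log2 fold change against DMSO (horizontal axis, bars 1 SE) of the 29 regions that cover a microRNA hairpin start, ordered by their value with apicidin; filled points passed an adjusted p of 0.05. With apicidin 14 filled points lie left of 0 and 2 right of it, and with GSI Mir142 and Mir21 lie right of 0 and Mir17 left.

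Counted over all their regions, microRNA loci of the T lineage were called with apicidin no more often than the table at large. A list of 61 symbols known from thymocytes and T cells, some of them alternative names, had 20 with a region and 128 regions in all. Of these, 15 regions of 11 symbols were lower (11.7%, against 14.1% of all regions) and 8 were higher (6.25%, against 9.69%), all 8 of them at Mir181a-1. The balance depends on the scaling, since after centring, and likewise after subtracting the trend, 11 were lower and 13 higher, 11 of the latter at Mir181a-1. The median over the 128 regions was 0.048, against 0.00398 over the table. Mir181a-1 held 60 of the 128 regions and none of the lower ones, so it weighs on these shares. By the strongest region of each symbol, 8 of 20 were lower and 1 higher, and 11 did not pass. Over all symbols 33.5% were lower and 12.0% higher by that count. Mir15a, whose cluster with miR-16 lies in Dleu2 and restrains BCL2, had a region 13967 bp from its hairpin (base mean 2164, chromosome 14 from 62264915 to 62269604) that fell by 0.80 ± 0.08 (adjusted p = 1.49e-22, the authors' deposited table). It was the only 1 of 5 Mir15a regions to pass. Mir326, in an intron of Arrb1, fell at both of its regions, by 0.61 and 1.09. Mir26b fell by 0.86, Mir26a-1 by 0.73 and Mir29b-1 by 0.46 at their strongest regions in the authors' deposited table, the last a call lost when the trend was subtracted. Mir30d fell by 0.32 at its strongest region, a call lost under both rescalings. The one Mir150 region did not pass (-0.03, adjusted p = 0.960).

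The miR-181 loci differed among themselves. The 60 regions of Mir181a-1 lay on chromosome 1 between 139363482 and 139850149. With apicidin 8 of them were higher and none lower by the adjusted p of the authors' DESeq2 table, where 1 was lower at an unadjusted p under 0.05. Of the 8, 6 were neighbours in a run from 139791248 to 139812526, some 50505 to 58953 bp from the hairpin, and the other 2 lay 150517 and 497893 bp away. The strongest of the run (base mean 3493) rose by 0.40 ± 0.07 (adjusted p = 1.20e-07, the authors' deposited table), and the region next to it (base mean 97.6) rose by 1.27 ± 0.26 (adjusted p = 9.07e-06). The weakest, at a base mean of 32.2, rose by 1.55 ± 0.46. Mir181b-1, the partner hairpin in the same cluster, had 8 regions; none passed the authors' adjusted p with either drug, and at an unadjusted p under 0.05 1 was higher with apicidin and 1 with GSI. Its strongest region stood at 0.34 ± 0.15 with apicidin (adjusted p = 0.0752). In the other direction, Mir181c fell by 0.67 ± 0.09 at a region 3217 bp away (base mean 1258, adjusted p = 2.63e-13) and Mir181a-2 fell by 0.44 ± 0.09 at 26714 bp (adjusted p = 2.00e-05), both from the authors' deposited table. The hairpins that yield strands of one seed were thus assigned regions that rose at 1 locus and fell at 2 others. Of the 4 Mir181c and 3 Mir181a-2 regions only 1 each fell, and the Mir181a-2 region over its own start did not pass.

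The let-7 family, which restrains growth genes and is held down by Lin28 in early cells, had 4 of 12 listed symbols and 36 regions. With apicidin 9 regions of 3 symbols were lower (25%, against 14.1% of all regions) and 2 higher (5.56%, against 9.69%), with a median of -0.11 over the 36 against 0.00398 over the table. Centring left 6 lower and 2 higher, and subtracting the trend 7 and 3. The strong Mirlet7c-2 region fell by 0.58 ± 0.05 (adjusted p = 4.70e-27, the authors' deposited table). It was 1 of 5 lower among the 15 Mirlet7c-2 regions, and 4 of these, the strong ones, lay between 85475996 and 85505365. After centring 3 of the 5 passed. Wnt7b, Ppara and Cdpf1 also had regions within 100 kb of these. Mirlet7i fell by 0.60 ± 0.08 over its start (chromosome 10, 122420173 to 122425235; adjusted p = 1.74e-12 in the authors' deposited table). Mirlet7a-1 went both ways. Its strongest region, 5994 bp away (base mean 1093), fell by 0.35 (a call lost under both rescalings), and 1 at 14169 bp fell by 0.76. Its regions at 5243 and 8485 bp, weaker than the strongest, rose by 1.11 and 1.10, the latter at a base mean of 74.7. No Mirlet7g region passed, and its strongest stood at 0.40 ± 0.22.

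Among members at or above the table's median base mean, the lowest called values with apicidin in the authors' deposited table belonged to Mir875 (-1.59), Mir3096 (-1.45), Mir1940 (-1.38), Mir140 (-1.21, a microRNA of cartilage within Wwp2) and Mir147 (-1.17). Mir5122 (-1.11), Mir326, Mir1893, a Mir17 region at 66066 bp (-1.07) and Mir365-2 (-1.07) came next. Mir147 lost acetylation along a stretch: 5 of its 8 regions fell, by 0.49 to 1.31. Mir3075, within Zmiz1, was lower at 9 of 29 regions, a count that centring took to 5 and subtracting the trend to 4. The highest called values, after Mir181a-1, belonged to Mir698 (1.25 ± 0.12 at a base mean of 479.9, adjusted p = 7.58e-23 in the authors' deposited table), Mir101b (1.23), Mir5114 (1.20), Mir3085 (1.16) and Mir5123 (1.15). Mir698 lies within Inpp5b, and its next region rose by 0.66. Mir5114 lies within Scd2, the gene of a fatty acid desaturase, and 6 of its 10 regions rose, by 0.62 to 1.20, while none fell at an adjusted or an unadjusted p under 0.05 in the DESeq2 table. The largest rise of any called member was at Mir218-2, within Slit3: a weak region (base mean 48.7) rose by 2.14 ± 0.39 (adjusted p = 6.08e-07, the authors' deposited table). Of 13 Mir218-2 regions 4 rose and 2 fell, and the strongest, at a base mean of 808.8, fell by 0.81 ± 0.09.

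Fewer members were called with GSI, and the called changes past 1 on the log2 scale were all downward. Of the 342 members that the authors' deposited table tested for GSI, 41 were lower (12.0%, against 7.17% of all tested regions) and 17 higher (4.97%, against 6.62%). The other 532, all with a base mean under 72.1, carry no adjusted p. The median log2 fold change of all members was -0.0308, against 0.00222 over the table. There were 8 such falls, and the largest called rise was 0.99. Counted once per symbol, 14 of 118 tested symbols were lower (11.9%, against 6.80% of all symbols) and 7 higher (5.93% against 7.74%). By the region nearest to each start in place of the strongest, 3 of 74 tested symbols were lower (4.05%, against 4.72% of all symbols), with 91 symbols untested.

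Over the hairpin start, Mir142 and Mir21 were higher with GSI and Mir17 was lower. These were the only calls among 25 tested start regions, so 8.0% were higher, against 5.25% of all tested start regions, and 4.0% lower, against 4.36%. Mir142 rose by 0.38 ± 0.05 (adjusted p = 1.24e-12, the authors' deposited table), and its region overlapped an RBPJ site. Mir21 rose by 0.17 ± 0.05 (adjusted p = 0.0105). The region over Mir17, the first hairpin of the miR-17~92 cluster (chromosome 14, 115439291 to 115443294, base mean 1062), fell by 0.45 ± 0.11 (adjusted p = 4.05e-04). With apicidin the same region fell by 0.31 ± 0.10 (adjusted p = 0.0139, the authors' deposited table), the call named above as lost under both rescalings. The strongest Mir17 region lay 89787 bp off and did not pass under either drug, at 0.16 for GSI and -0.02 for apicidin.

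The largest rise with GSI was just beside a start: the Mir22hg region, 64 bp from the start of the host transcript of miR-22 (chromosome 11, 75275106 to 75276598, base mean 315.4), rose by 0.99 ± 0.16 (adjusted p = 5.61e-08, the authors' deposited table). With apicidin it rose by 0.41 ± 0.16 (adjusted p = 0.0452). The 3 regions assigned to Mir22 itself did not pass. Next came Mir101b (0.85, and 1.23 with apicidin) and Mir680-3 (0.85), whose loci have 1 and 15 regions. Mir692-1 rose by 0.66 at 1 region. Mir3966, Mir491, Mir1931 and Mir684-1 rose by 0.44 to 0.46, and Mir491 also by 0.39 at another of its regions. In the T-lineage list, 3 of 47 tested regions were higher with GSI (6.38%, against 6.62% of all tested regions) and 2 lower (4.26%, against 7.17%). The higher ones were at Mir142, Mir21 and the strong Mir181a-1 region (0.21 ± 0.07, a call lost when the trend was subtracted). The lower ones were at Mir17 and a Mir181a-1 region at 314876 bp (-0.37 ± 0.12). The list's median was 0.038, and neither share was above that of the table. Of 17 tested let-7 regions 1 was lower (5.88%, against 7.17% of all tested regions), 53170 bp from Mirlet7i (-0.57 ± 0.12, adjusted p = 2.73e-05). None was higher by the authors' DESeq2 adjusted p (against 6.62% of all tested regions), where 1 was higher at an unadjusted p under 0.05.

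The regions that fell with GSI lay far from the hairpins. Beyond 50 kb, 22 of 88 tested members were lower (25%, against 11.9% of all tested regions at that distance), whereas within 10 kb without covering the start 3 of 99 were (3.03%, against 5.14%). From 10 to 50 kb it was 15 of 130 (11.5% against 9.29%). Most of these calls sat at a few loci. The 7 symbols with at least 3 lower regions (Mir5127 with 9, Mir214 with 4, and Mir1903, Mir205, Mir331, Mir378b and Mir551b with 3 each), picked for those calls, held 28 of the 41. Without them 13 of 291 tested members were lower (4.47%), and 4 of 55 beyond 50 kb (7.27%). With apicidin, among members from 10 to 50 kb, 7 of 322 were higher (2.17%, against 9.66% of all regions there) and 54 lower (16.8% against 11.7%).

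**Figure D3:**
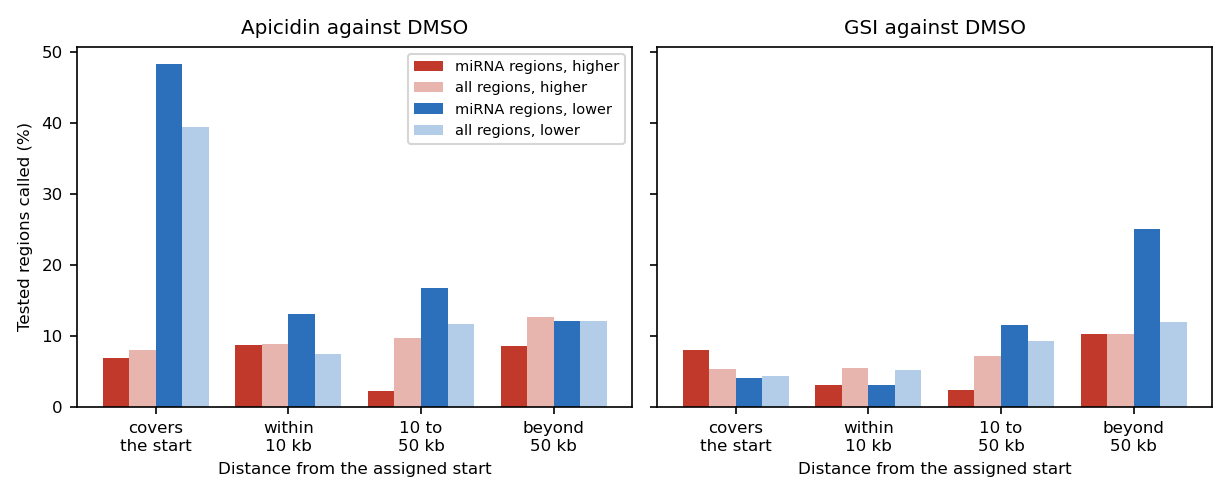
Share of tested regions called higher or lower (vertical axis, %), by distance from the assigned start, for microRNA regions (dark bars) and all regions of the table (light bars). With GSI 25% of microRNA regions beyond 50 kb are lower, against 11.9% of all, and with apicidin 2.17% from 10 to 50 kb are higher, against 9.66%.

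Mir551b, in an intron of Egfem1, showed the largest falls with GSI: -1.46 ± 0.29 at 27744 bp, -1.24 ± 0.24 at 29182 bp and -1.04 ± 0.27 at 77226 bp in the authors' deposited table. All 3 had base means of 84.9 to 130.6, above the table's median of 61.3 and the lowest value tested for GSI, 72.1. With apicidin none of the 3 passed. Mir1903, within Nrp1, fell by 1.22 ± 0.10 at an RBPJ-overlapping region 119527 bp from the hairpin (chromosome 8, 131002669 to 131006882, base mean 770.0; adjusted p = 6.27e-30 in the authors' deposited table). The same region fell by 0.61 ± 0.09 with apicidin. The Mir1903 regions at 113785 and 128299 bp fell with GSI by 0.51 and 1.19. Other Mir1903 regions lay nearer, the nearest 2971 bp from the hairpin, and did not pass with GSI or were untested.

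At Mir214, whose hairpin lies within Dnm3 and its antisense transcript Dnm3os, 4 regions were tested for GSI and 4 fell. The strongest (chromosome 1, 164223300 to 164228288, base mean 931.1) fell by 1.03 ± 0.10 (adjusted p = 2.89e-24, the authors' deposited table), and the others by 0.65 to 0.84. With apicidin 3 of these 4 fell as well, by 0.42 to 0.91. At Mir331, within Vezt, all 3 tested regions fell with GSI, by 0.59, 0.98 and 1.14, at 22180 to 29512 bp. The middle one, at a base mean of 595.8, had an adjusted p of 2.57e-15 and was the only one of the 3 to pass with apicidin, at -0.44 ± 0.11. Of the lower Mir378b regions, within the Musashi gene Msi2, all 3 lay beyond 50 kb.

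Mir5127, which lies within no gene by RefSeq, held the most regions that fell with GSI: 9 lower and 2 higher of 19 tested. The 9 lower ones lay on chromosome 18 between 82170152 and 82352942, at 8006 to 150838 bp from the hairpin. The strongest, at 150838 bp (base mean 2729), fell by 0.88 ± 0.08 (adjusted p = 2.23e-27, the authors' deposited table) and stood at 0.06 ± 0.07 with apicidin. The RBPJ-overlapping region at 110490 bp (base mean 1941) fell by 0.84 ± 0.07 with GSI (adjusted p = 5.42e-29) and by 0.35 ± 0.07 with apicidin. At 137619 bp the drugs parted: this region fell by 0.97 ± 0.11 with GSI and rose by 0.38 ± 0.10 with apicidin. The 2 regions that rose with GSI, by 0.69 and 0.54, lay outside that span at lower coordinates. Galr1, a neighbour within 100 kb, had 7 regions, of which 4 were lower with GSI.

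**Figure D4:**
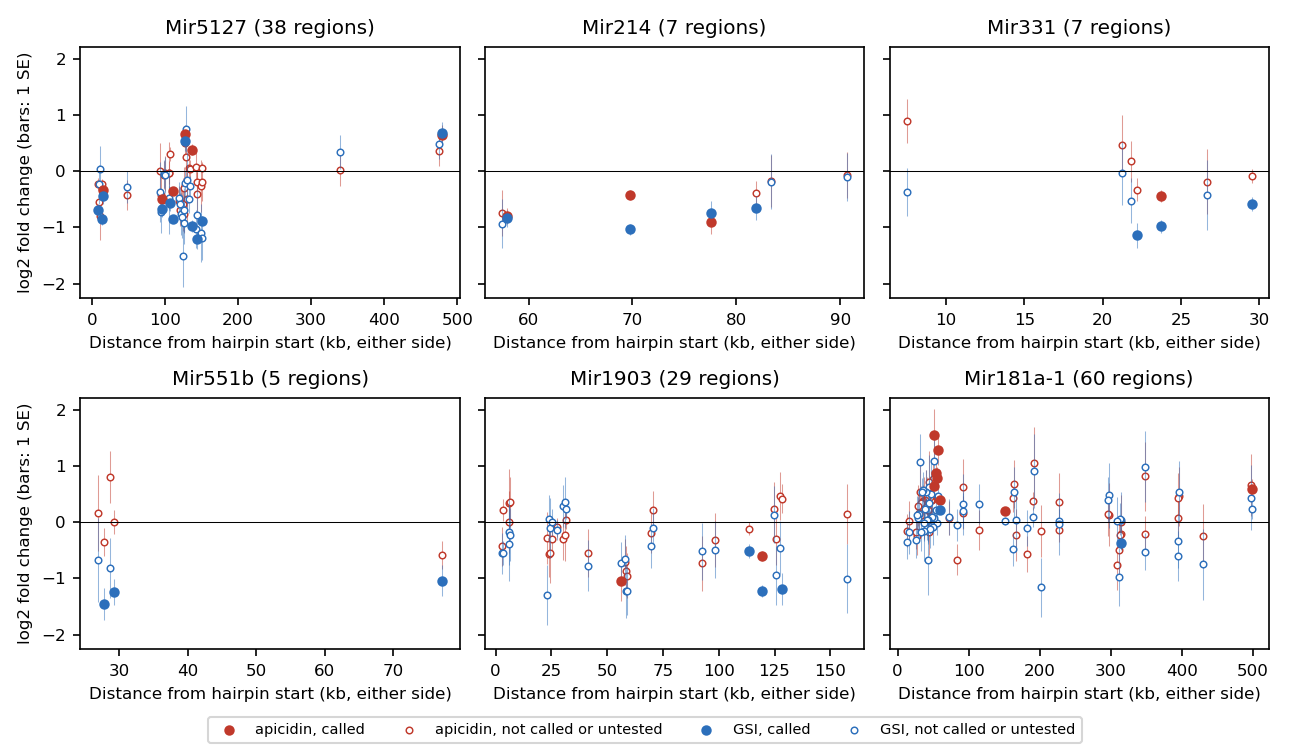
Log2 fold change against DMSO (vertical axis, bars 1 SE) of every region of 6 symbols against its distance from the hairpin start on either side (kb, horizontal axis), apicidin in red and GSI in blue, filled where called. At Mir5127, Mir214, Mir331, Mir551b and Mir1903 most filled blue points lie below 0 and none of them at the hairpin; at Mir181a-1 filled red points lie above 0, most of them 50505 to 58953 bp away.

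Apicidin and GSI were next set against each other directly, by the difference of the deposited log2 fold changes and the SE from both. Because both use the DMSO libraries, that SE is wider than it need be. Of 874 members 33 were higher with apicidin than with GSI (3.78%, against 3.01% of all regions) and 42 lower (4.81%, against 5.60%). The clearest differences were at Mir1893, 1.20 ± 0.11 lower with apicidin (difference -1.20, adjusted p = 5.75e-24), and at the strong Mirlet7c-2 region (-0.68 ± 0.07, adjusted p = 7.49e-18). Both had fallen with apicidin and stood at 0.12 and 0.10 with GSI in the authors' deposited table. At Mir142 the difference was -0.30 ± 0.07 (adjusted p = 0.000529). At Mir147 it was -0.84 ± 0.10 (adjusted p = 4.78e-13), its region of base mean 1838 having fallen by 0.49 with apicidin and risen by 0.34 with GSI. In the other direction stood Mir5127, with 7 regions higher with apicidin, led by the one at 137619 bp (1.35 ± 0.14, adjusted p = 1.86e-17), and Mir1903 at 128299 bp (1.60).

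RBPJ sites were sparse at microRNA regions. The authors' deposited table marks 14 of 874 as overlapping one (1.60%, against 2.73% of all regions), on 11 symbols. Over starts it was 4 of 29 (13.8%, against 12.0%): Mir142, Mir762, Mir5131 and Mir484. Off starts it was 1.18% against 1.22%, so at either kind of region the share was near that of the table. With apicidin 8 of the 14 were lower (57.1%, against 36.9% of the 1538 RBPJ-overlapping regions of the table) and 2 higher (14.3% against 9.10%). Among them the Mir1966 region, of base mean 4739, fell by 0.39 ± 0.06, Mir1932 by 0.27 and Mir30d by 0.32. The Mir181a-1 site on chromosome 1 from 139700436 to 139712514 rose by 0.20 ± 0.07 (adjusted p = 0.0279). The lower calls at Mir1932, Mir30d and the Mirlet7a-1 region 5994 bp from its hairpin were lost under both rescalings. The shares of RBPJ-overlapping regions were not recounted after rescaling. With GSI, which cuts off Notch input to RBPJ, 1 of the 14 was higher (Mir142), 3 were lower (Mir1903, the Mir5127 region and Mir1932, the last by 0.46 ± 0.08) and 10 did not pass. The lower ones make 21.4%, against 10.5% of all tested RBPJ-overlapping regions, and the higher one 7.14% against 4.66%. RBPJ was mapped in DMSO cells only, so its binding under the drugs was not measured.

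MicroRNAs known from other tissues were examined by list. Of 14 listed muscle and liver names none had a region. However, Mir1a-2, a miR-1 hairpin under a name not on that list, had 1 region (base mean 94.5). That region fell with apicidin by 0.99 and did not pass with GSI, at -0.06. Of 12 embryonic stem cell symbols Mir302b alone had a region, which did not pass with apicidin and was untested for GSI. Of 13 myeloid, erythroid and megakaryocyte symbols 3 had one: Mir10a fell with apicidin by 0.77 and Mir126, within Egfl7, by 0.62, while Mir144 stood at 0.48 ± 0.19 (the authors' deposited table gives 0.0536 as its adjusted p), and passed as higher after either rescaling. Of 14 epithelial and mesenchymal symbols 6 had a region, with 36 regions. Of these 12 were lower with apicidin (33.3%, against 14.1% of all regions) and 1 higher (2.78%, against 9.69%), with a median of -0.33. Centring left 9 lower and 1 higher, and subtracting the trend 10 and 1. The apicidin calls at the strongest regions of Mir205 and Mir200c were lost under both rescalings. With GSI 7 of 17 tested were lower (41.2%, against 7.17% of all tested regions), all at Mir205 and Mir214, and the median over the 36 was -0.19. None of the 17 was higher with GSI at an adjusted p under 0.05 in the DESeq2 table (against 6.62% of all tested regions), or at an unadjusted one. Mir200b, of the family that holds down the ZEB factors, fell with apicidin at 4 of 6 regions, by 0.33 to 1.29. Its strongest, at a base mean of 2866, lay 11092 bp from the hairpin. Of 19 neuronal symbols 3 had a region, with 22 in all, of which 5 were higher (22.7%, against 9.69% of all regions) and 2 lower (9.09%, against 14.1%) with apicidin. Mir218-2 alone held 13 of the 22 regions, with 4 of the higher and 2 lower ones, so these shares rest mostly on that locus. Mir219-2 held the other higher region, its strongest, which rose by 0.55 ± 0.10 (adjusted p = 1.49e-06, the authors' deposited table).

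The genes that make and use microRNAs were called lower with apicidin at several strongest regions, but over all their regions no more often than the table. Of 33 listed names, some of them alternative names, 23 had a region. By the strongest region of each gene 13 were lower, 10 did not pass and none was higher by the authors' DESeq2 adjusted p (1 at an unadjusted p under 0.05). The lower ones make 56.5%, against 33.5% of all symbols, and 39.4% of all regions that cover a start. Over all 167 regions of these genes 14 were lower (8.38%, against 14.1% of all regions) and 11 higher (6.59%, against 9.69%), with a median of 0.15. After centring these were 9 and 15, and after subtracting the trend 9 and 12, so the balance over all regions depends on the scaling. In processing, Dicer1 fell by 0.62 ± 0.13 (adjusted p = 4.27e-05), Ddx5, a helicase of the Drosha complex, by 0.59 ± 0.07 (adjusted p = 1.14e-14), and Prkra, a partner of Dicer, by 0.64, all from the authors' deposited table. Ran, which powers nuclear export of the hairpin with exportin-5, fell by 0.66 at a region 107 bp from its start. A second Ran region, 3 bp from the start and as strong (base mean 615.9 against 616.7), did not pass, at -0.11 ± 0.12. Dgcr8 fell by 0.29 and Khsrp by 0.36, calls lost under both rescalings. Neither of the 2 Drosha regions passed, and the stronger one, 98149 bp from the start, stood at -0.19 ± 0.17.

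Among effectors, at the strongest region of each, the helicase gene Mov10 fell by 0.68, Ddx20 by 0.51, Tnrc6c by 0.42 and Ddx6 by 0.35 with apicidin in the authors' deposited table, and Tnrc6a by 0.36, a call lost under both rescalings. Tnrc6c went both ways: of its 31 regions 4 rose and 1 fell. A Tnrc6c region nearly as strong as the one that fell (base mean 1114 against 1196) rose by 0.49 ± 0.09 (adjusted p = 2.67e-07, the authors' deposited table). The Argonaute genes Eif2c1, Eif2c2 and Eif2c3 did not pass at their strongest regions, at -0.19, 0.02 and 0.12. Away from the strongest, 3 of the 20 Eif2c2 regions rose with apicidin, by 0.27 to 0.54, and none was called lower. The Eif2c2 region 46048 bp from the start stood at -0.54 ± 0.27 (unadjusted p = 0.0449, adjusted p = 0.140 by the authors' DESeq2 test). Dis3l2, the nuclease that degrades uridylated let-7 precursors, fell by 0.69. Zcchc6, a uridylating enzyme, fell by 0.26, a call lost under both rescalings. With GSI 3 of the 22 genes tested at their strongest region passed there: Eif2c1 fell by 0.54 ± 0.17 (adjusted p = 0.0132), and Zcchc6 (0.27) and Zcchc11 (0.24) rose, both calls lost when the trend was subtracted. Away from the strongest regions, a Tnrc6c region rose by 0.24 and a Tnrc6b region fell by 0.36 with GSI, so that 3 of 66 tested regions of the list were higher (4.55%, against 6.62% of all) and 2 lower (3.03%, against 7.17%). Acetylation was the only readout, and levels of the microRNAs or of their primary transcripts were not measured.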

How the data were processed

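ChIP-seq of H3K27ac and RBPJ in Beko cells was available as 1 deposited table. Per the submitters' processing notes, FastQC, Bowtie2, SAMtools and deepTools were used on the build mm9; versions, caller, counter and use of the inputs were not given in the sources used here. Per the file headers, the deposited columns are those of DESeq2. Base mean, a signal averaged by the authors over normalised read counts, was read from the column headed for GSI and used as the strength of a region for both drugs; the header does not say which libraries it covers. The deposited log2 fold changes and SEs were used as given, and the reference, not named in the headers, was taken to be DMSO. The deposited Wald score equalled log2 fold change over SE within 0.0782% for apicidin and 0.0629% for GSI. Adjusted p-values recomputed by Benjamini-Hochberg from the authors' p-values differed from theirs by at most 1.03e-06. The distance to the start and the mark of RBPJ overlap are the authors' own.

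Members and gene lists were chosen with earlier results of these data known. No column of an unknown sample was found (0 columns). Named were the listed T-lineage and let-7 symbols, the 10 highest and lowest called members per treatment at or above the median base mean, members with RBPJ, called members at a start, members called under both drugs or between them (given as counts with the leading cases), and called biogenesis genes; other symbols were picked after their values were seen. The direct contrast used a two-sided normal p with Benjamini-Hochberg adjustment over 56342 regions, and was tested on simulated data. Python 3.11.15, pandas 2.3.3, numpy 2.4.6, scipy 1.17.1 and matplotlib 3.10.9 were used. The alternatives were centring on stronger regions, subtracting a running median over 2001 regions ordered by base mean, a threshold of 0.01, a minimum change of 1, regions near or over a start, adjustment over all regions for GSI, other regions per symbol, and a smaller SE for the contrast. Sequences and host genes came from RefSeq, whose build differs from mm9, so none of its coordinates is given.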

Additional observations from a re-analysis of the deposited data

How the results depend on the processing

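No paired analysis was possible because the table holds no value per library, and for the same reason leaving out a replicate was not run. Single calls were checked for a set of regions only. The set held the highest and lowest called members per treatment, the strongest region of each listed gene, members over a start and members with RBPJ. Calls given in the text at other regions were not checked singly, though some entered the rescaled counts by locus or list. No call in the set reversed under any alternative tried. Of 79 apicidin calls in the set 64 held after centring, 62 after subtracting the trend and 67 at an adjusted p of 0.01. Of 31 GSI calls in the set 31, 28 and 23 held, and 29 with adjustment over all regions.

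Members called with apicidin numbered 188 (54 higher, 134 lower). With a minimum change of 1 there were 48 (19 and 29), within 10 kb of the start 76 (26 and 50) and covering it 16 (2 and 14). For GSI the 58 calls (17 higher, 41 lower) became 8 (0 and 8), 9 (5 and 4) and 3 (2 and 1). At an adjusted p of 0.01 10 GSI calls were higher. Without the 7 symbols with most GSI-lower regions, left out after the data were seen, 28 calls remained in number, 13 of them lower. The 75 differences between drugs (33 higher, 42 lower with apicidin) became 169 (67 and 102) with an SE that allows for the shared control. By symbol, the 21 GSI calls became 8 with the nearest region (3 lower), which was tested for fewer symbols, and 11 were higher by the region of smallest p. Of the 3 biogenesis genes called with GSI at their strongest region 1 was left after subtracting the trend, with 0 higher. The causes were not tested, beyond fewer regions entering a stricter setting. The SE with apicidin ranged from 0.0487 to 1.51 over members.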

Other observations

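Loci with many regions differed in how many of them were called. Mir378b, within Msi2, which encodes an RNA-binding protein of stem and leukaemic cells, had 30 regions, of which 7 fell with apicidin by 0.46 to 1.20 in the authors' deposited table. None rose by the DESeq2 adjusted p, and 1 was higher at an unadjusted p under 0.05. After either rescaling 1 was higher and 5 lower. The 7 lay between 66261 and 204149 bp from the hairpin. At Mir3075 the strongest region (base mean 5105) fell by 0.23 ± 0.06 with apicidin and stood at 0.09 ± 0.06 with GSI. None of its 17 tested regions passed for GSI, where at an unadjusted p under 0.05 there was 1 higher and 1 lower. At Mir721 none of 27 regions passed with apicidin, at an adjusted or an unadjusted p under 0.05, yet 2 of the 4 tested for GSI fell, by 0.69 ± 0.13 at 33952 bp and by 0.31 ± 0.10 at 72607 bp (adjusted p = 3.41e-06 and 0.0238, the authors' deposited table). The 18 regions of Mir1843 gave no call with either drug by adjusted or unadjusted p, 5 of them being tested for GSI. At Mir1190, with 20 regions, 1 rose by 0.76 ± 0.13 with apicidin and 1 fell by 0.73 ± 0.26. Whether these regions act on the microRNA, on the host gene or on another gene was not tested.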
